A study of Mus musculus with 34 samples.

Results

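The comparison described here is that of hyper and control pups, in which a single high dose of thyroid hormones (THs) was given to pups whose own thyroid function had not been disturbed. It was taken from the array titles and holds 10 hyper and 8 control arrays, or 18 of the 34 arrays of the series. No array was left out here by its values, but the study's methods state that outlying arrays of each sex had been removed by clustering of array values before the analysis. Each array measured liver RNA of 1 C57BL/6 pup at postnatal day (PND) 15. Hyper pups (5 males and 5 females) had received 50 µg of thyroxine (T4) and 5 µg of triiodothyronine (T3) per 100 g body weight by intraperitoneal injection 4 h before collection, and control pups (4 males and 4 females) an injection of saline. Neither group had a goitrogen, and both were nursed by untreated dams. The remaining arrays are those of hypo pups (n = 9), whose dams drank methimazole and perchlorate, and of hypo+ pups (n = 7), which had the same drinking water and then 20 µg of T4 and 2 µg of T3 per 100 g 4 h before collection. As a model this is an acute, supraphysiological pulse in wild-type juveniles, and the whole liver was sampled.

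T4 is largely a prohormone that deiodinases convert to T3, and T3 binds nuclear TH receptors, which sit on response elements mostly as heterodimers with retinoid X receptors. Without hormone the receptors recruit corepressors such as NCOR1, and with hormone they recruit coactivators, so that transcription of a target can change within hours. In liver the hormone is known for raising lipogenic enzymes, cholesterol synthesis and its conversion to bile acids, and mitochondrial glycerol phosphate oxidation.

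Each value is the log2 ratio of pup liver (Cy5) to a universal mouse reference RNA (Cy3) after loess normalization, so that a difference of 1 between groups is a doubling. It shows change between groups and not the abundance of one gene against another. The 8 hepatocyte markers on the array were well above background in both groups, and their summed Cy5 signal was 10100 to 12400 times the array median in control and 10200 to 12500 times in hyper pups. The median Cy5 signal was 150.0 to 191 in control and 151 to 192.5 in hyper arrays, 63.6 to 79.0% and 60.8 to 78.1% of probes were well above background, and Xist separated the labelled sexes on all 34 arrays. Control arrays 831, 522 and 832 carried transcripts of pancreatic acinar cells. The 16 acinar markers summed to 68.3 to 83.6 times the array median in the other 5 control arrays and to 54.6 to 105 times in hyper arrays, against up to 1220 times in these 3. None of the 16 markers was below background on every control array, and Pnlip was not well above background on any hyper array. Results that rest on these 3 arrays are therefore also given without them. In bulk liver, fewer cells of a type and less RNA per cell cannot be told apart.

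In total, 539 of 33236 genes (1.62%) differed between hyper and control pups by limma with Benjamini-Hochberg adjustment over all probes at 0.05, of which 371 (1.12%) were higher and 168 (0.505%) lower in hyper pups. The changes were small. Among the called genes, 76 (0.229%) changed by at least 1.5-fold and 8 (0.0241%) by at least 2-fold. The median log2 fold-change over all genes was -0.005, and 421 of the called genes have a symbol. With median centring in place of loess, 352 called genes were higher and 82 lower. Without the 3 acinar-carrying control arrays 397 genes were called, of which 324 were among the 539. With litter, read from the first 2 digits of the animal numbers, as a block in place of the slide, 283 were called, all of them among the 539. By these digits the 8 control pups came from 4 litters and the 10 hyper pups from 6. The main fit has the slide and not the litter as a block, so that its SE and adjusted p treat littermates as independent. Separate fits of each sex, in which no litter recurs but fewer arrays enter, called 27 genes in males and 60 in females.

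Auts2, which encodes a nuclear protein of a variant Polycomb complex, had the largest rise. Its log2 ratio was 0.40 to 0.88 (median 0.68) in the 8 control arrays and 2.00 to 2.59 (median 2.29) in the 10 hyper arrays. The groups did not overlap, and the lowest hyper pup lay more than 1 log2 unit above the highest control. Its fold-change was 3.06 (log2 fold-change 1.61 ± 0.096 SE, adjusted p = 5.54e-13). A further Auts2 probe was also called, with a log2 fold-change of 0.29, so that the size of the change depends on the probe. Gbp8, an interferon-inducible guanylate-binding GTPase, was 0.93 to 1.61 (median 1.14) in control and 1.68 to 2.80 (median 2.28) in hyper arrays, again without overlap. It rose 2.14-fold (log2 fold-change 1.10 ± 0.11 SE, adjusted p = 8.36e-08), and its further probe by 0.37 on the log2 scale. Stim2, a calcium sensor of the endoplasmic reticulum, was 0.04 to 0.51 (median 0.41) in control and 1.07 to 1.45 (median 1.28) in hyper arrays. The groups were fully apart, with a fold-change of 1.96 (log2 fold-change 0.97 ± 0.073 SE, adjusted p = 1.36e-10).

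Several transporters and metabolic enzymes followed. Slc25a45, a carrier of the inner mitochondrial membrane, was 1.05 to 1.66 (median 1.32) in control and 1.95 to 2.50 (median 2.25) in hyper pups, which did not overlap, and rose 1.83-fold (log2 fold-change 0.87 ± 0.073 SE, adjusted p = 1.86e-09). Nudt7, a peroxisomal hydrolase that degrades coenzyme A, was 3.94 to 4.43 (median 4.24) against 4.86 to 5.31 (median 5.03) (log2 fold-change 0.86 ± 0.1 SE, adjusted p = 1.35e-06). Every hyper pup was above every control, but its further probe was not called, at 0.33. Sort1, or sortilin, a sorting receptor that handles lipoproteins in the secretory pathway, was 1.87 to 2.80 (median 2.34) against 2.89 to 3.73 (median 3.23) (log2 fold-change 0.87 ± 0.1 SE, adjusted p = 1.04e-06), also without overlap. Of its 4 probes 3 were called, and their log2 fold-changes ranged from 0.12 to 0.87 over all 4. DXBay18, known by its X-chromosome locus name, was 0.90 to 1.27 (median 1.12) against 1.43 to 2.28 (median 2.11) (log2 fold-change 0.94 ± 0.099 SE, adjusted p = 1.48e-07), and both of its probes were called. Slc41a2, a magnesium transporter, was -1.36 to -0.83 (median -1.21) in control and -0.98 to 0.42 (median -0.51) in hyper arrays (log2 fold-change 0.84 ± 0.14 SE, adjusted p = 3.67e-04). Here the groups overlapped, since 9 of 10 hyper pups were above all controls. Mup1, a major urinary protein, was 0.94 to 2.14 (median 1.31) against 1.47 to 2.71 (median 2.41) (log2 fold-change 0.83 ± 0.17 SE, adjusted p = 0.0033). Its near-identical paralogs can bind the same probe, so that the signal cannot be given to 1 of them. Bmf, a BH3-only activator of apoptosis, was 0.27 to 1.26 (median 0.88) against 0.87 to 2.14 (median 1.85) (log2 fold-change 0.82 ± 0.14 SE, adjusted p = 7.70e-04), and 8 of 10 hyper pups exceeded all controls. The remaining Bmf probe was not called, with a log2 fold-change of -0.02. Auts2, Gbp8, Stim2, DXBay18, Slc25a45, Sort1, Nudt7 and Slc41a2 stayed called under all 17 alternative analyses and with each array left out in turn. Mup1 was not called with normexp background correction or the scanner software's own ratio (highest adjusted p = 0.535), and Bmf was not called with litter as a block and without the acinar-carrying controls (adjusted p = 0.0822).

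**Figure D1:**
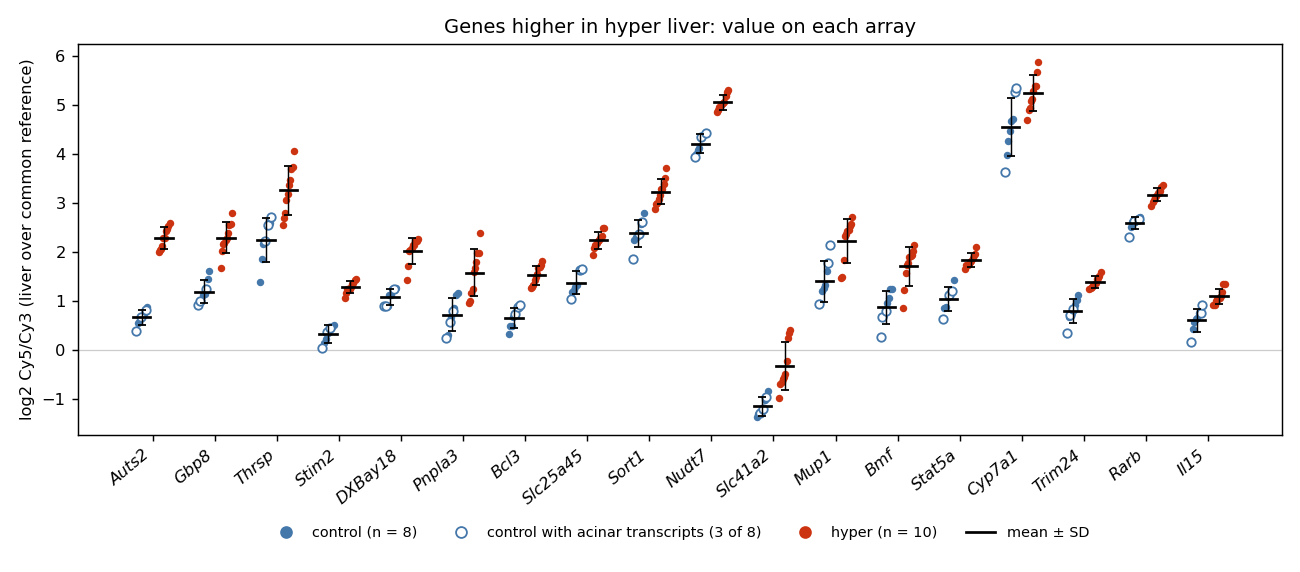
Log2 ratio of pup liver to reference (y axis) for the 15 named genes with the highest fold-change at their printed probe, and for Trim24, Rarb and Il15, on each of 8 control (blue) and 10 hyper (red) arrays. Open circles are the 3 control arrays with acinar transcripts, and bars give mean ± SD. For Auts2 all hyper arrays lie between 2.00 and 2.59 and all controls at 0.88 or lower, whereas for Thrsp, Pnpla3, Slc41a2, Mup1, Bmf and Cyp7a1 the groups overlap.

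Of the 53 genes chosen by the naming rule, 39 have a promoter in the table used. AGGTCA is in at least 1 promoter of 9 genes, among them Fmo2, which fell. This is a count of genes and cannot be set beside the shares of promoters given below. Promoters of 3 genes that rose are shown as examples of AGGTCA, the half-site of TH response elements, in the 300 bases that RefSeq places around the start (250 before and 50 after, GRCm38.p6, both strands searched). The capitals mark the match. They are Slc25a45 (chr19:5877572-5877871, plus strand), 1 of 3 promoters of Bmf (chr2:118549637-118549936, minus strand) and the first of 2 promoters of Stat5a, which both hold it (chr11:100859406-100859705, plus strand).
Slc25a45: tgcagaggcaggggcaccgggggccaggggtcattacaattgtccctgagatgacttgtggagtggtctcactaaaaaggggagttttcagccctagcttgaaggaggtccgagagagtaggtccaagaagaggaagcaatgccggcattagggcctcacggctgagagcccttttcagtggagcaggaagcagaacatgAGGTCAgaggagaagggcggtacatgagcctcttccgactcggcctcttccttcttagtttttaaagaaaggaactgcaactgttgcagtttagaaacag
Bmf: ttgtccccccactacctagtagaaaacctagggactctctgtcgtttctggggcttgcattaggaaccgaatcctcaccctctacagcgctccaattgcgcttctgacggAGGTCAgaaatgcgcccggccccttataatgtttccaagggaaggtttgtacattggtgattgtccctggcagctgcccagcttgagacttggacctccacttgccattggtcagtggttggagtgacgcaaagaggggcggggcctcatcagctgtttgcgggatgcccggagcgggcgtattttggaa
Stat5a: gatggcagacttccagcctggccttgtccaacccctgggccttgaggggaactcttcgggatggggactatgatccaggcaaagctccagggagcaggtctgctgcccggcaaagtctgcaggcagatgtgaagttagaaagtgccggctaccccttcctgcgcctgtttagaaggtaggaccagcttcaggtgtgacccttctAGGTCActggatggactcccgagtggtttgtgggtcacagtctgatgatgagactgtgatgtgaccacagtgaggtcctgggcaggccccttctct

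The match begins 50 bases before the start in Slc25a45, 140 in Bmf and 46 in Stat5a. AGGTCA was present in 16.3% of all 32851 promoters in the table, in 18.3% of the 317 promoters of genes called higher and in 9.02% of the 133 promoters of genes called lower. A pair of half-sites in direct repeat with a spacer of 4 bases was in 0.0152% of all promoters and in none of those of called genes. A match is a description of the letters in this window only, and Auts2, Gbp8, Sort1 and Cyp7a1 have no entry in the table. The response element for which the study gives binding evidence at Slc25a45 is a different site, further upstream and outside this window.

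Of 17 known hepatic TH targets on the array, 6 rose, none fell and 11 did not pass the test, with a median log2 fold-change of 0.12. For comparison, 1.12% of all genes were called higher. The list holds genes known as targets in general, and it was drawn up with results of these samples known, so that its direction is not independent evidence. Thrsp, or Spot 14, a cofactor of fatty acid synthesis and a classical target, was 1.39 to 2.71 (median 2.38) in control and 2.56 to 4.06 (median 3.28) in hyper arrays. All 8 slides that hold both groups had the hyper pup higher, but the groups overlapped. The fold-change was 2.06 (log2 fold-change 1.05 ± 0.24 SE, adjusted p = 0.0112). Bcl3, an IκB-family cofactor of NF-κB, was 0.33 to 0.92 (median 0.71) against 1.28 to 1.83 (median 1.53) without overlap and rose 1.84-fold (log2 fold-change 0.88 ± 0.11 SE, adjusted p = 3.57e-06). Gpd2, the mitochondrial glycerol-3-phosphate dehydrogenase, rose by 0.54 at its brighter probe (0.41 to 1.01 (median 0.55) against 0.87 to 1.46 (median 1.10), adjusted p = 9.52e-04 by limma) and by 0.71 at the other (adjusted p = 6.67e-06), where the groups did not overlap. Me1, the malic enzyme that supplies NADPH for lipogenesis, was -1.54 to -1.01 (median -1.34) against -1.17 to -0.64 (median -1.0) (log2 fold-change 0.38 ± 0.07 SE, adjusted p = 0.00123).

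Among 19 genes of lipogenesis 5 rose and none fell (median 0.17), beside 1.12% of all genes called higher. Beside Thrsp and Me1 these were Pnpla3, a lipid droplet hydrolase, with 0.25 to 1.16 (median 0.74) in control and 0.96 to 2.39 (median 1.64) in hyper pups (log2 fold-change 0.89 ± 0.14 SE, adjusted p = 2.59e-04), Elovl6, which elongates long-chain fatty acids, with -1.78 to -1.39 (median -1.60) against -1.37 to -0.78 (median -1.29) and no overlap (log2 fold-change 0.37 ± 0.083 SE, adjusted p = 0.00909), and Gpam, the first enzyme of glycerolipid synthesis, with -0.14 to 0.18 (median 0.04) against 0.08 to 0.36 (median 0.24) (log2 fold-change 0.21 ± 0.047 SE, adjusted p = 0.00928). The core enzymes and regulators of the pathway did not pass: the log2 fold-change was 0.25 for Fasn (adjusted p = 0.113, limma), 0.17 for Acly (0.173), -0.05 for Acaca (0.725), -0.23 for Scd1 (0.81), 0.27 for Srebf1 (0.476) and 0.01 for Mlxipl (0.986). Thrsp lost its call with litter as a block (adjusted p = 0.0708), on the within-slide pairs and under 3 further alternatives, Me1 without the acinar-carrying controls (adjusted p = 0.0539), and Elovl6 in both these cases (adjusted p = 0.0542 and 0.105). Gpam was lost with normexp, median centring and the within-slide pairs (highest adjusted p = 0.163). Without the 3 acinar-carrying controls 3 of the 5 lipogenic genes and 5 of the 6 targets were called, and with litter as a block 3 and 4.

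Cholesterol synthesis and uptake had the highest median of the 18 pathway lists, 0.23. Of 21 members 7 rose and none fell, and 19 had a log2 fold-change above 0, while 1.12% of all genes were called higher and their median was -0.005. This list too was drawn up with earlier results known. Of the 7, 5 are described here. Msmo1, a sterol 4-methyl oxidase, was -1.94 to -1.36 (median -1.58) in control and -1.44 to -0.48 (median -1.08) in hyper arrays (log2 fold-change 0.59 ± 0.1 SE, adjusted p = 7.96e-04), with the hyper pup higher on 7 of 8 slides. Hmgcs1, an early enzyme of the pathway, was 0.68 to 1.17 (median 0.85) against 1.00 to 1.80 (median 1.23) (log2 fold-change 0.44 ± 0.12 SE, adjusted p = 0.0444). Its further probe was not called, at 0.27. Fdps, which makes farnesyl diphosphate, was called at its dimmer probe with -0.97 to -0.52 (median -0.69) against -0.75 to 0.36 (median -0.28) (log2 fold-change 0.43 ± 0.097 SE, adjusted p = 0.0113) but not at its brighter one (log2 fold-change 0.23 ± 0.07 SE, adjusted p = 0.104). Smaller changes were those of Sc5d (0.29, adjusted p = 0.0377) and Nsdhl (0.17, adjusted p = 0.013), both in the last steps of synthesis. Of the 14 that did not pass, Cyp51 had a log2 fold-change of 0.27 (adjusted p = 0.0549, limma), Sqle of 0.33 (0.0741), Srebf2 of 0.29 (0.086), Insig1 of 0.15 (0.365) and Fdft1 of -0.20 (0.357).

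Msmo1 stayed called under all 17 alternatives, and Hmgcs1, Fdps, Sc5d and Nsdhl did not. The list kept 4 calls without the acinar-carrying controls and 4 with litter as a block. Hmgcs1 and Sc5d were lost in both (adjusted p = 0.241 and 0.153 without these controls) and were called in 6 of the 18 fits that left out 1 array (highest adjusted p = 0.121 and 0.116). Cyp7a1, the rate-limiting enzyme that turns cholesterol into bile acids, was 3.64 to 5.36 (median 4.57) in control and 4.71 to 5.89 (median 5.21) in hyper pups (log2 fold-change 0.72 ± 0.18 SE, adjusted p = 0.0283). The hyper pup was higher on all 8 slides, but 4 of 10 hyper pups exceeded every control, and the call held in 9 of 18 fits without 1 array (highest adjusted p = 0.0986). Cyp7a1 lost its call with litter as a block (adjusted p = 0.168), and its further probe was not called, at 0.46. It was the only called gene of 12 for bile acid synthesis and export. Cyp8b1 (0.28, adjusted p = 0.562), Cyp27a1 (0.14, 0.682), the repressor Nr0b2 (-0.01, 0.995) and the export pump Abcb11 (-0.04, 0.949) did not pass.

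The list with the most calls was that of interferon-inducible and IL-15 genes, in which 8 of 18 members rose and none fell, with a median of 0.20. All 18 log2 fold-changes were above 0. Among all genes 1.12% were called higher, and the median was -0.005. The list was drawn up with earlier results of these data known, so that its counts and direction are not independent evidence. Guanylate-binding proteins made up 5 of the 8. Because family members are alike in sequence, a probe may also bind a relative. Beside Gbp8, Gbp3 was 0.48 to 1.29 (median 0.82) in control and 0.99 to 1.82 (median 1.41) in hyper arrays (log2 fold-change 0.55 ± 0.11 SE, adjusted p = 0.00386). Gbp2 was 0.23 to 0.68 (median 0.55) against 0.53 to 1.13 (median 0.82) (log2 fold-change 0.33 ± 0.068 SE, adjusted p = 0.00446), and Gbp6 0.68 to 1.40 (median 1.17) against 1.10 to 1.92 (median 1.46) (log2 fold-change 0.36 ± 0.092 SE, adjusted p = 0.0301). The hyper pup was higher on all 8 slides for each of these, though the groups overlapped. Gbp9 was called at its dimmer probe (log2 fold-change 0.23 ± 0.058 SE, adjusted p = 0.0317) and not at the brighter (0.07, adjusted p = 0.78). Il15, a cytokine that sustains natural killer and memory T cells, was 0.16 to 0.92 (median 0.65) in control and 0.93 to 1.36 (median 1.05) in hyper pups, which did not overlap, and rose 1.41-fold (log2 fold-change 0.49 ± 0.073 SE, adjusted p = 6.32e-05). Il15ra, the receptor chain that presents it, was 1.47 to 1.72 (median 1.59) against 1.66 to 2.00 (median 1.85) (log2 fold-change 0.23 ± 0.038 SE, adjusted p = 2.24e-04), with a brighter probe at 0.20 (adjusted p = 0.193). Irf1, a transcription factor of the interferon response, was 0.20 to 0.52 (median 0.33) against 0.36 to 0.82 (median 0.59) (log2 fold-change 0.26 ± 0.059 SE, adjusted p = 0.0137).

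Of the 10 list members that did not pass, Isg15 had a log2 fold-change of 0.13 (adjusted p = 0.718, limma), Ifit1 of 0.04 (0.942), Oas1a of 0.07 (0.816), Irf7 of 0.10 (0.828) and Cxcl10 of 0.17 (0.771). Interferon-inducible genes outside the list were also called higher, among them Tgtp1 (0.57, adjusted p = 0.00476), Cxcl9 (0.42, 0.022) and Ifih1 (0.35, 0.0201), which were picked after their values were seen. None of the 6 lymphocyte and 8 macrophage markers on the array was called. Lymphocyte markers summed to 9.96 to 18.5 times the array median in control and 10.8 to 19.0 times in hyper arrays, and macrophage markers to 152 to 296 and 164 to 292 times, so that the ranges overlapped nearly in full. Gbp8 and Il15 were called under all 17 alternatives. Without the acinar-carrying controls 5 members were called, Gbp7 newly among them and named for this after its values were seen (log2 fold-change 0.38, adjusted p = 0.0186), and with litter as a block also 5. Without these controls Gbp3, Gbp6, Gbp9 and Irf1 were lost (adjusted p = 0.0511, 0.18, 0.0878 and 0.0964), and the last 3 of these also with litter as a block. Gbp6 kept its call in 10 and Gbp9 in 9 of 18 fits without 1 array (highest adjusted p = 0.102 and 0.0888).

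Of 13 genes of retinoid signalling, Rarb and Trim24 rose and none fell (median -0.01), beside 1.12% of all genes called higher. Rarb, the beta retinoic acid receptor and itself a retinoid target, was 2.32 to 2.71 (median 2.63) in control and 2.95 to 3.37 (median 3.18) in hyper arrays. Every hyper pup was above every control, and the rise was 1.49-fold (log2 fold-change 0.58 ± 0.066 SE, adjusted p = 8.86e-07). Trim24, a coregulator that binds retinoic acid receptors, was 0.35 to 1.12 (median 0.81) against 1.24 to 1.60 (median 1.35), again without overlap (log2 fold-change 0.60 ± 0.069 SE, adjusted p = 9.84e-07). Both were called in every alternative. The other receptors and enzymes gave Rara -0.01 (adjusted p = 0.975, limma), Rarg -0.09 (0.595), the retinoic acid hydroxylases Cyp26a1 0.12 (0.667) and Cyp26b1 -0.40 (0.335), and Dhrs3 -0.15 (0.204).

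In the growth hormone and IGF1 axis 2 of 12 genes rose and 1 fell (median -0.03), beside 1.12% and 0.505% of all genes. Stat5a, a transcription factor that cytokine receptors activate, was 0.63 to 1.44 (median 1.10) in control and 1.65 to 2.11 (median 1.81) in hyper arrays without overlap (log2 fold-change 0.80 ± 0.082 SE, adjusted p = 1.02e-07). Stat5b, which carries most of the growth hormone signal in liver, was 2.00 to 2.45 (median 2.25) against 2.54 to 2.98 (median 2.68) at its brightest probe, where the groups did not overlap (log2 fold-change 0.44 ± 0.07 SE, adjusted p = 1.79e-04). The probe with the lowest p gave 0.81 ± 0.092 SE (adjusted p = 6.58e-07), and all 3 probes were called. Socs2, a feedback inhibitor of the same receptor, was 1.84 to 3.51 (median 2.55) in control and 0.65 to 2.35 (median 1.60) in hyper pups and fell by 0.94 on the log2 scale (SE 0.24, adjusted p = 0.0367). Its groups overlapped, and the call held in 7 of 17 alternatives and in 9 of 18 fits without 1 array (highest adjusted p = 0.125). Cish, a relative of Socs2, had a log2 fold-change of -0.54 (adjusted p = 0.216, limma), Ghr of 0.05 (0.876), Igf1 of -0.10 (0.757) and Igfbp1 of 0.00 (0.997).

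The genes that fell included both metallothioneins, which are cysteine-rich proteins that bind zinc and copper. Mt2 was 0.50 to 2.68 (median 1.20) in control and -2.92 to 0.62 (median 0.07) in hyper arrays, lower in the hyper pup on all 8 slides. The fitted fold-change of control over hyper pups was 3.06 (log2 fold-change -1.61 ± 0.35 SE, adjusted p = 0.0083). Mt1 was 0.20 to 1.77 (median 0.69) against -1.77 to 0.51 (median -0.05) (log2 fold-change -1.04 ± 0.23 SE, adjusted p = 0.0106). In both genes hyper pup 498 was the lowest of all, and the groups overlapped. Without the 3 acinar-carrying controls the log2 fold-change was -1.15 for Mt2 (adjusted p = 0.178, limma) and -0.72 for Mt1 (adjusted p = 0.21), so that neither passed. Both calls were also lost on the within-slide pairs.

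Mt2 and Mt1 are neighbours on chromosome 8, and their promoters are shown with the core letters of the metal response element, TGCACNC or TGCGCNC, in capitals. This search was added after their values were seen. The windows are those of RefSeq in GRCm38.p6, at chr8:94172368-94172667, plus strand for Mt2 and chr8:94178839-94179138, plus strand for Mt1.
Mt2: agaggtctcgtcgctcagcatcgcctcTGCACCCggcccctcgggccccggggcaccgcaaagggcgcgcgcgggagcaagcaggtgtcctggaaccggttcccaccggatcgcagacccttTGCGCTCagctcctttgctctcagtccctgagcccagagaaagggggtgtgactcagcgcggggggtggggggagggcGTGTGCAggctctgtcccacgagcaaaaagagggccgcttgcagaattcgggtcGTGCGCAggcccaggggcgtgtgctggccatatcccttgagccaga
Mt1: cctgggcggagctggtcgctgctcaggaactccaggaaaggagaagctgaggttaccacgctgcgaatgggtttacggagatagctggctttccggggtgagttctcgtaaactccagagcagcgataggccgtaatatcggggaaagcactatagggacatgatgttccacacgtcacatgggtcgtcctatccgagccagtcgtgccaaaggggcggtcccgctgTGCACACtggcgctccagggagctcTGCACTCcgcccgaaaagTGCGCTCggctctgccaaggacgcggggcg

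There were 4 matches in the window of Mt2 and 3 in that of Mt1, counting both strands and overlapping matches. Either form was present in 25.7% of all promoters in the table, in 33.4% of those of genes called higher and in 36.1% of those of genes called lower. Of 10 genes that glucocorticoids induce, Mt1, Mt2 and Fkbp5 fell and none rose, with the lowest median of the 18 pathway lists (-0.39, and -0.34 without the acinar-carrying controls). Among all genes 0.505% were called lower. Fkbp5, a co-chaperone of the glucocorticoid receptor, was 0.01 to 1.56 (median 0.34) in control and -0.50 to 0.45 (median -0.04) in hyper arrays (log2 fold-change -0.56 ± 0.15 SE, adjusted p = 0.0483). This was 1 of its 3 probes, and the call held in 2 of 17 alternatives and in 5 of 18 fits without 1 array (highest adjusted p = 0.119). Control array 522, which carries acinar transcripts, was the highest of the 18 arrays for Mt2 (2.68), Mt1 (1.77), Fkbp5 (1.56) and Per1 (0.76). Without this array alone the log2 fold-change was -1.35 for Mt2 (adjusted p = 0.0326, limma), -0.86 for Mt1 (0.041) and -0.38 for Fkbp5 (0.119), and the part of this array in the list's median was not tested. Tsc22d3 had a log2 fold-change of -0.32 (adjusted p = 0.0707, limma), Per1 of -0.54 (0.151, and -0.70 with 0.0486 without the acinar-carrying controls, where it alone of the 10 was called), Sgk1 of -0.46 (0.496) and Tat of -0.05 (0.918).

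Ppp1r3c, a subunit that directs protein phosphatase 1 to glycogen, was 2.70 to 4.17 (median 3.49) in control and 2.20 to 2.94 (median 2.47) in hyper pups and fell by 0.96 on the log2 scale (SE 0.16, adjusted p = 4.98e-04 by limma), with both probes called and the hyper pup lower on 7 of 8 slides. It was the only gene of 14 of gluconeogenesis, glycolysis and glycogen that passed. G6pc (0.01, adjusted p = 0.996), Pklr (-0.21, 0.437), Gys2 (-0.13, 0.806) and Slc37a4 (-0.29, 0.0662) did not. Dio3, the deiodinase that inactivates T4 and T3, was 1.74 to 2.95 (median 2.15) against 0.99 to 1.87 (median 1.41) and was lower in the hyper pup on all 8 slides (log2 fold-change -0.84 ± 0.15 SE, adjusted p = 9.52e-04). Of 10 hyper pups 9 were below every control. Fmo2, a flavin-containing monooxygenase, was 2.32 to 3.39 (median 2.91) against 1.40 to 2.46 (median 2.22) (log2 fold-change -0.80 ± 0.13 SE, adjusted p = 1.85e-04). Egfr, the epidermal growth factor receptor, was 1.03 to 2.19 (median 1.90) against 0.41 to 1.45 (median 0.96) (log2 fold-change -0.81 ± 0.16 SE, adjusted p = 0.00252), and 2 of its 4 probes were called. It was lower in the hyper pup on 6 of 8 slides and lost its call on the within-slide pairs. Acot1, a cytosolic acyl-CoA thioesterase, was -1.13 to -0.33 (median -0.60) against -1.32 to -0.77 (median -1.0) (log2 fold-change -0.40 ± 0.1 SE, adjusted p = 0.0297) and was the only called gene of 22 for fatty acid oxidation and ketogenesis, where Ppara had -0.09 (adjusted p = 0.834), Cpt1a 0.08 (0.871) and Angptl4 -0.84 (0.0794). Dio3, Ppp1r3c and Fmo2 kept their calls without the acinar-carrying controls (adjusted p = 0.0116, 0.00208 and 0.00659), and Egfr and Acot1 did not (adjusted p = 0.054 and 0.0525). Acot1 kept its call in 10 of 18 fits without 1 array (highest adjusted p = 0.0991) and lost it with litter as a block (adjusted p = 0.0875). With normexp background correction Ppp1r3c and Dio3 lost their calls, Ppp1r3c also with the scanner software's ratio (highest adjusted p = 0.136 and 0.0809). Dio3 and Fmo2 lost theirs with litter as a block and without the acinar-carrying controls.

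The gene with the largest nominal fall, Reg1, is an acinar product. Its log2 ratio was 0.10 to 7.50 (median 1.13) in control and 0.06 to 0.62 (median 0.20) in hyper arrays (log2 fold-change -2.67 ± 0.72 SE, adjusted p = 0.0483). The 3 acinar-carrying control arrays were at 6.04 or higher, the other 5 at 1.73 or lower, and without the former the log2 fold-change was -0.40 (adjusted p = 0.825, limma). The same held for Ins1, an insulin gene of pancreatic islet cells, which was well above background on 4 of 8 control and 4 of 10 hyper arrays (log2 fold-change -0.81 ± 0.21 SE, adjusted p = 0.0305; -0.15 and adjusted p = 0.0689 without them), and for the digestive enzyme genes Ctrb1 (log2 fold-change -0.47 ± 0.12 SE, adjusted p = 0.0367; -0.14 and 0.574 without them) and Pnliprp1 (log2 fold-change -0.58 ± 0.13 SE, adjusted p = 0.0141; -0.29 and 0.378 without them). All 16 acinar markers had a log2 fold-change below 0, with a median of -1.36, which was -0.01 without the 3 arrays, and none was then called. Even so, Ctrc was 1.07 to 1.45 in the other 5 controls and 1.56 to 2.11 in the 10 hyper arrays. This gene was picked after its values were seen. The fit without the 3 arrays kept the hypo and hypo+ arrays in its estimate of the spread. Reg1 was called in 4 and Ctrb1 in 9 of 18 fits without 1 array (highest adjusted p = 0.156 and 0.125), and Ins1 was lost without control 832, 522 or 831 or hyper 784 or 585 (highest adjusted p = 0.0837).

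**Figure D2:**
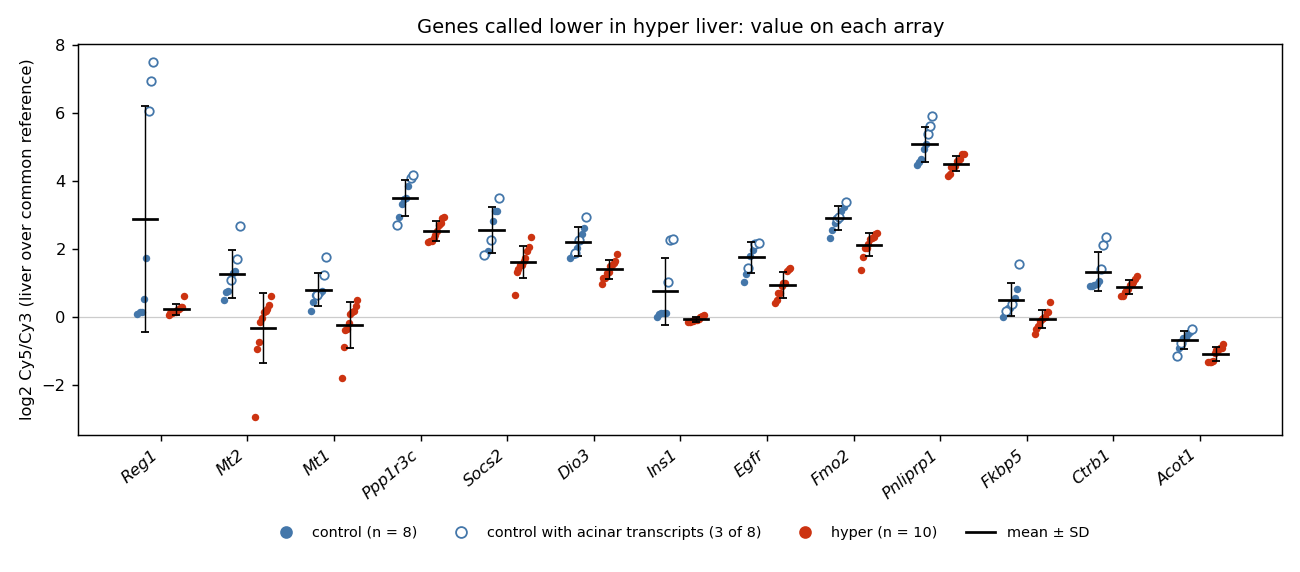
Log2 ratio of pup liver to reference (y axis) for 13 genes that were lower in hyper pups, on each of 8 control (blue) and 10 hyper (red) arrays, with bars for mean ± SD. The 3 control arrays with acinar transcripts (open circles) stand at 6.04 or higher for Reg1, where the other controls reach 1.73, while for Dio3 and Fmo2 arrays 831 and 832 lie among the other controls and array 522 is the highest control, at 2.95 and 3.39.

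Few genes of the hormone's own machinery passed the test. Of 17 TH receptors and coregulators 1 rose and none fell (median 0.00). Thra, which encodes TH receptor alpha, had a log2 fold-change of -0.20 (adjusted p = 0.126, limma), Thrb of -0.05 (0.773), Rxra of -0.14 (0.101), Ncor1 of -0.06 (0.834) and Ncoa1 of 0.03 (0.843). Among 19 genes of TH metabolism and transport, Dio3 alone was called. Dio1, the deiodinase that forms T3 in liver and is a known target, was 5.60 to 6.42 (median 6.04) in control and 5.93 to 7.14 (median 6.28) in hyper arrays (0.35 ± 0.14 SE, adjusted p = 0.294), so that the groups overlapped. By RT-qPCR the study found Dio1 significantly higher in hyper pups of both sexes, and it regards its array results as likely to miss some genes. The binding proteins had the following log2 fold-changes: Ttr -0.05 (0.939) and Serpina7 -0.22 (0.796). Slc25a30, a mitochondrial carrier, rose beside Slc25a45 among 17 carriers, with -0.91 to 0.57 (median -0.27) in control and 0.10 to 0.98 (median 0.27) in hyper pups (log2 fold-change 0.71 ± 0.17 SE, adjusted p = 0.0173). It lost its call without the acinar-carrying controls (adjusted p = 0.112) and in the fits without control 881, 832 or 831 (highest adjusted p = 0.0634), and also with litter as a block (adjusted p = 0.0949). Ucp2 had a log2 fold-change of 0.12 (0.445). Cry1, a repressor of the circadian clock, was -0.04 to 0.41 (median 0.23) against 0.24 to 0.83 (median 0.63) (log2 fold-change 0.38 ± 0.073 SE, adjusted p = 0.0023) and was the only called gene of 18 clock genes, with -0.10 for Per2 (adjusted p = 0.755), -0.24 for Nr1d1 (0.392) and 0.07 for Arntl (0.868). Without the acinar-carrying controls 1 clock gene was called higher and 2 lower, Per1 among the latter.

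No gene was called in 4 of the 18 lists: 13 PGC-1 and mitochondrial regulators, 16 Krüppel-like factors, 14 immediate early genes and 15 cell cycle genes. Ppargc1b had a log2 fold-change of 0.35 (adjusted p = 0.0741, limma) and Ppargc1a of -0.05 (0.964). Klf9, which is also on the list of known hepatic TH targets, was 0.61 to 2.40 (median 1.07) in control and 0.84 to 1.48 (median 1.03) in hyper pups (-0.19, adjusted p = 0.785). The whole hyper range lay inside that of the controls, but the top of the control range came from arrays 522 (2.40) and 523 (1.77). By their animal numbers these were littermates. The other controls were at 0.61 to 1.26. Fos had 0.07 (0.919), Egr1 0.27 (0.618), Ccnd1 0.18 (0.502) and Top2a 0.17 (0.563). Over all 18 lists, 38 of 269 genes on the array were called, beside 1.62% of all genes. The lists were drawn up with earlier results of these data known, so that this share does not stand as a test of them.

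**Figure D3:**
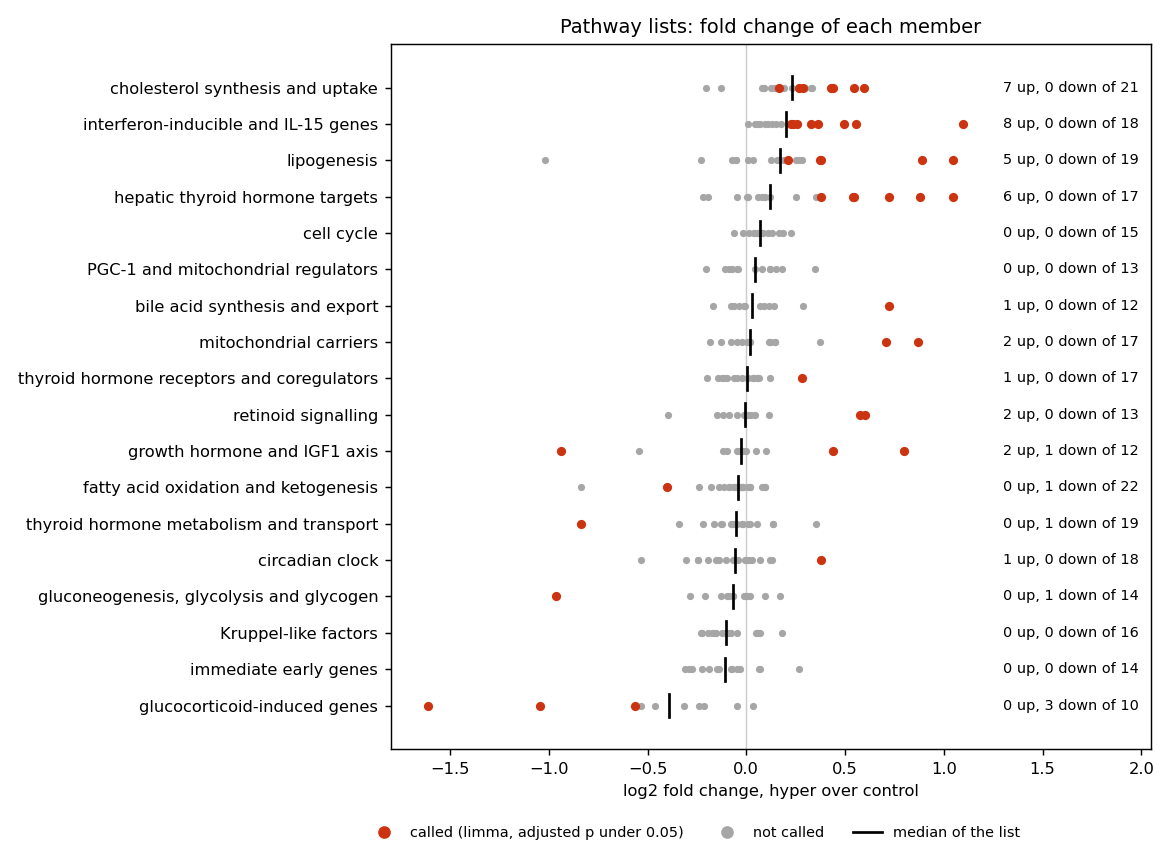
Log2 fold-change of hyper over control pups (x axis) for each member of the 18 pathway lists, 1 row per list, ordered by the list's median (black line). Red points passed limma at an adjusted p of 0.05 and grey points did not. Calls among cholesterol, interferon-inducible, lipogenic and TH target genes are all to the right of 0, and those among glucocorticoid-induced genes to the left.

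The sexes were then compared in a fit of 8 groups. In males 89 genes (0.268%) were called, 83 of them higher in hyper pups, and in females 192 (0.578%), of which 146 were higher, and 65 genes were called in both. The test of the difference itself, the sex-by-treatment interaction, called 0 genes by limma (smallest adjusted p = 0.99993, with 1115 of 41174 probes at an unadjusted p under 0.05), and 0 also with litter as a block. Auts2 had log2 fold-changes of 1.63 in males and 1.59 in females, Stat5a of 0.80 and 0.80, and Rarb of 0.61 and 0.54. These were nearly equal. Further apart were Thrsp, with 0.79 in males and 1.31 in females, Pnpla3 with 0.65 and 1.13, and Slc25a30 with 1.06 and 0.35. Fdps had the lowest unadjusted interaction p of the named genes, 0.0017, with 0.16 in males and 0.69 in females, which did not pass after adjustment (limma, adjusted p = 1). All 53 genes chosen by the naming rule had the same sign in both sexes.

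**Figure D4:**
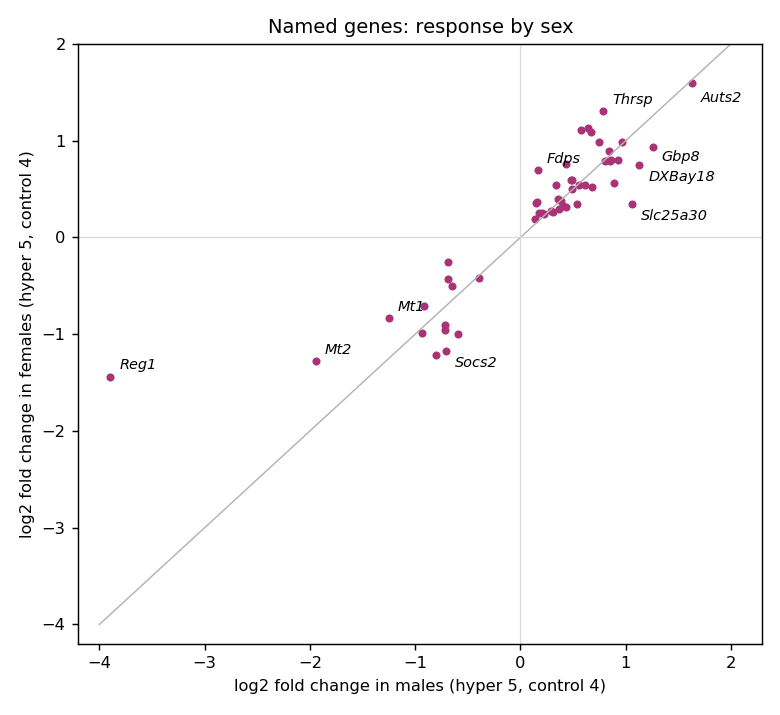
Log2 fold-change of hyper over control in females (y axis) against males (x axis) for the 53 genes chosen by the naming rule, from the fit of 8 groups with 5 hyper and 4 control pups of each sex; the grey line marks equal response. The genes were chosen on both sexes together, which sets their quadrant. Reg1, at -3.90 in males and -1.44 in females, is the farthest from the line, and Auts2 lies close to it.

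Hyper pups were also compared with hypo+ pups, which had a lower dose after goitrogen, so that dose and prior state differ together and cannot be told apart. Directly, 1839 genes (5.53%) were called by limma, 1128 of them higher in hyper pups, and with median centring 489, of which 356 were higher and 133 lower. Of the 539 genes called against control, 195 were among the 1839, 154 higher and 41 lower in hyper pups. The acinar product Reg1 had a log2 difference of -1.71 between hyper and hypo+ pups (adjusted p = 0.23, limma). Acinar transcripts on the single hypo+ arrays were not examined, and their part in these counts was not tested. The comparisons with control share the 8 control arrays, and their values are therefore only set side by side. Gbp8 had a log2 fold-change over control of 1.10 in hyper, 0.33 in hypo+ and 0.08 in hypo pups, and hyper was above hypo+ by 0.77 (adjusted p = 4.77e-04, limma). Rarb had 0.58, 0.14 and -0.04, with hyper above hypo+ by 0.44 (adjusted p = 5.85e-04). In hypo+ pups neither gene passed against control (adjusted p = 0.197 and 0.443). Thrsp had 1.05 in hyper, -0.12 in hypo+ and -1.45 in hypo pups, and the direct difference was 1.16 (adjusted p = 0.00802). Mup1 was similar in order, with 0.83, -0.05 and -0.89 (difference 0.88, adjusted p = 0.00502). Members of the cholesterol list were also higher in hyper than in hypo+ pups. Msmo1 had 0.59, -0.19 and -0.61 (difference 0.78, adjusted p = 1.96e-04), Fdps a difference of 0.55 (adjusted p = 0.00284) and Nsdhl of 0.34 (adjusted p = 2.04e-05). The guanylate-binding proteins Gbp3 (difference 0.78, adjusted p = 3.78e-04) and Gbp2 (0.45, 5.55e-04) differed in the same direction.

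Other genes were above control in both injected groups. Auts2 had 1.61 in hyper and 1.26 in hypo+ pups, a difference of 0.35 that passed narrowly (adjusted p = 0.0465, limma), and 0.08 in hypo pups. DXBay18 had 0.94 and 1.20 (difference -0.26, adjusted p = 0.172), with -0.73 in hypo pups. Trim24 had 0.60 and 0.58 (difference 0.02, adjusted p = 0.928) and -0.60 in hypo pups. A p above the threshold does not show that the groups are equal. Bmf and Nudt7 were above control in hyper and below it in hypo pups. Bmf had 0.82 in hyper, 0.65 in hypo+ and -1.34 in hypo pups, and Nudt7 0.86, 0.42 and -1.0. Ppp1r3c, which fell by 0.96 in hyper pups, fell by 0.73 in hypo+ pups and had 1.06 in hypo pups.

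**Figure D5:**
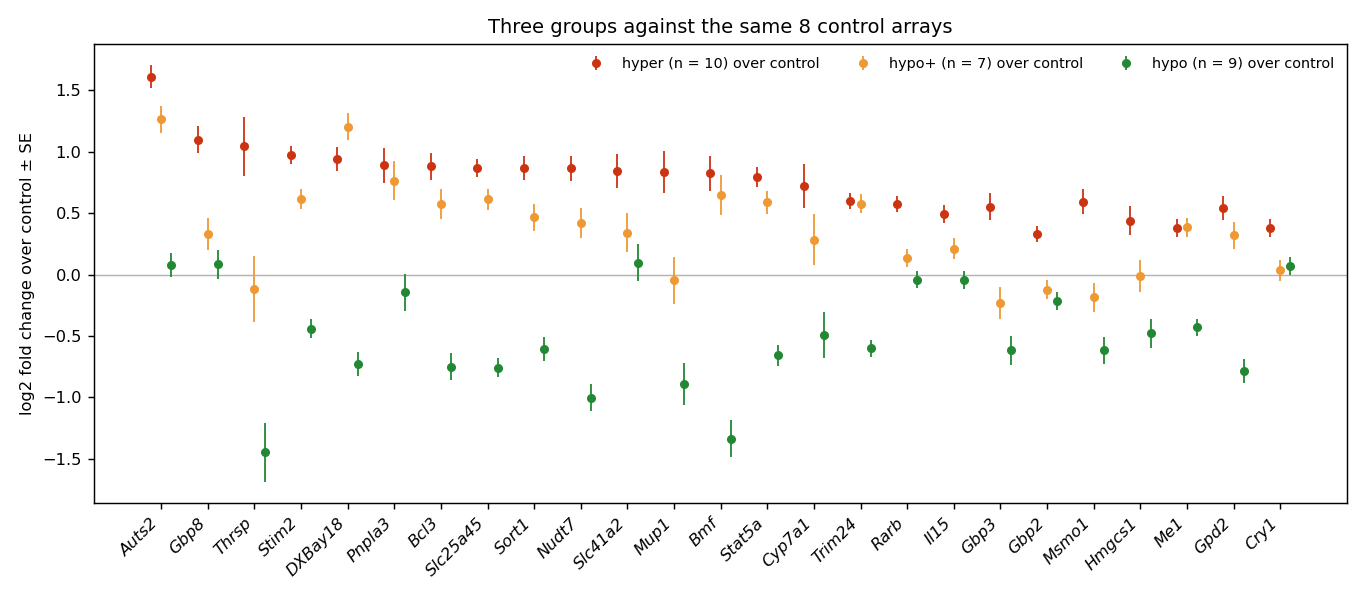
Log2 fold-change over the same 8 control arrays ± SE (y axis) for 25 genes that rose in hyper pups, in hyper (red), hypo+ (orange) and hypo (green) pups. For Auts2, DXBay18, Trim24 and Me1 the red and orange points are both above 0, while for Thrsp, Mup1, Rarb, Msmo1 and Cry1 only the red point stands clearly above 0.

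Each control array shared its slide with 1 hyper array, which allows a count that no model enters. Of the 53 genes chosen by the naming rule, 38 had the same direction on all 8 slides, for which no share over all probes is given here. In 14 the 10 hyper and 8 control arrays did not overlap at the printed probe, beside 0.287% of all probes. As the genes were chosen on these arrays, and the control pups came from 4 litters, these counts describe the arrays only.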

How the data were processed

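Liver RNA (Cy5) was hybridised with universal mouse reference RNA (Cy3) on Agilent 4x44K arrays. The authors scanned them with Agilent Feature Extraction and deposited spot intensities, a log10 ratio per spot and, separately, loess-normalized log2 ratios. Here the log2 ratio of the deposited median intensities was normalized by loess within each array, control and outlier spots were left out, and spots of a probe were averaged, which left 41174 probes. Groups were read from the array titles, and doses from the study's methods. limma 3.58.1 in R 4.3.3 fitted the 4 groups with gender as covariate and slide as random block (correlation 0.237). P-values were Benjamini-Hochberg adjusted over all probes, and a gene was called if a probe had an adjusted p under 0.05. Of 33541 systematic names, 16806 were named through RefSeq accessions and 71 through the study's tables, and 16664 kept their identifier. The named genes are the 15 symbols with the largest called rise and the 10 with the largest called fall, the called pathway-list members and the markers Auts2, Gbp8, Rarb and Thrsp. Where the brightest probe was called, it was printed, and otherwise the probe with the lowest p. List members that did not pass, the list medians and the median over all genes follow the same rule. Some genes that this rule selects are not reported here, but stand in the counts. The members, lists and the exclusion of 3 acinar-carrying controls were chosen with earlier results of these data known. The numbers of arrays and of litters limit the precision. The 17 alternatives covered background correction, normalization, probe filter, slide, scan batch, litter, gender and samples, and 3 of them were chosen after seeing the data. The code was tested on simulated data.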

Additional observations from a re-analysis of the deposited data

Results flagged for a closer look

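In 5 of 98 sets of values, 1 array stood apart from the rest of its group by Dixon's criterion, which chance alone meets in about 1 of 20 sets. For Reg1, hyper array 861 was the highest of its group at 0.62, and the next was 0.29. For Mt2, hyper array 498 was the lowest at -2.92, and the next was -0.94. For Gpd2, control array 391 was the highest at 1.01, and the next was 0.65. For Elovl6, hyper array 864 was the highest at -0.78, and the next was -1.12. For Nsdhl, hyper array 783 was the highest at -0.43, and the next was -0.69.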

How the results depend on the processing

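No result changed direction under any alternative. The 539 genes called between hyper and control became 258 with normexp background correction, 335 without the slide block, 283 with litter as block and 179 with litter as block and without the acinar-carrying controls, and 435 to 575 when 1 array was left out. The 76 genes with at least 1.5-fold became 47 with normexp, 49 with litter as block without these controls and 60 to 93 when 1 array was left out. The 8 with at least 2-fold became 5 with normexp, 14 with median centring, 25 with the scanner software's ratio, 16 with Cy5 alone, 15 with present probes only, 4 on within-slide pairs, 5 with litter as block, 5 without the acinar-carrying controls, 4 with both, and 5 to 21 when 1 array was left out. The 38 calls in the gene lists became 21 with normexp, 25 with litter as block, 18 with litter as block without these controls and 30 to 42 when 1 array was left out. The 53 named genes became 31, 34 and 22 under the same settings, 32 without these controls alone and 41 to 49 when 1 array was left out. By sex, the 89 genes of males became 56 with litter as block and 27 with the sexes fitted apart, and the 192 of females 76 and 60. For hyper against hypo+, 1839 genes became 489 with median centring (356 higher and 133 lower). The cause of these shifts was not tested. The animal numbers in the titles are not shared between groups and pair no samples. The 8 slides that hold both groups do allow a paired analysis, and the within-slide pairs called 624 genes, of which 405 were among the 539. Dim probes such as that of Ins1, which was well above background on 4 of 8 control and 4 of 10 hyper arrays, are the least certain.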

Other observations

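The values below were chosen after they were seen. Ucp1, the uncoupling protein of brown fat, had a log2 ratio of 3.39 on hyper array 499 and of -0.14 to 0.16 on the other 9 hyper arrays. Control array 522 was the highest of the 18 for Lpin1 (4.92), Klf9 (2.40), Fkbp5 (1.56) and Per1 (0.76), and control array 523 was the next highest for each (2.93, 1.77, 0.84 and 0.57). By the first 2 digits of the animal numbers, 522 and 523 came from the same litter, so that they are not independent repeats.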
